A study of Homo sapiens with 2 samples.

Results

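Fibronectin (FN1) and 8 other genes of secreted matrix proteins or their regulators were examined in melanoma cells after suppression of THOC2, a subunit of the complex that couples transcription to the export of mRNA. The 8 others were THBS1, THBS2, TNC, SPARC, SERPINE2, TGFBI, POSTN and SPP1. Every probe that the deposited annotation assigns to 1 of these 9 symbols was taken, which gave 11 of the 58199 probes on the array, for 9 of 34757 gene symbols. The genes were selected around FN1, whose probe was known to differ by 2-fold between the same pair of arrays, so all values below describe these arrays and none of them is a test.

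A375 cells are an established human line grown out of a malignant melanoma. Small interfering RNAs (siRNAs) are duplexes that direct the cleavage of mRNAs with a matching sequence. A375 cells of both conditions were grown with foetal bovine serum, in DMEM by the sample labels and in RPMI medium by the study's methods, and were transfected with a lipid reagent, one culture with an siRNA against THOC2 (si-THOC2) and one with a control siRNA (NC), and total RNA was taken 48 h later. Each condition was measured on 1 one-colour Agilent array, so the variation from culture to culture could not be estimated, no test was possible, and only technical error within the arrays can be given. The methods list several THOC2 siRNAs without naming the one used here. The sample titles and descriptions put the arrays in 1 order and the source field in the reverse order. The titles and descriptions were followed, and both THOC2 probes were lower on the array labelled si-THOC2, with signals of 136 against 40.9 and 67.3 against 35.1.

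Fibronectin is the adhesive glycoprotein along which cells attach and move, and it binds integrins through short peptide motifs. Matricellular proteins such as thrombospondins, tenascin-C, SPARC, periostin and osteopontin are secreted into the matrix but serve less as scaffold than as modulators of adhesion, protease activity and growth factor access. Several of them are transcribed in response to TGF-beta, and in melanoma they are best known for their links with invasion, which the study assayed in the same cells.

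A probe of 60 bases stands for each gene, so the sequence measured is a small part of each transcript. The probes shown here are those of FN1, on which the selection rested, of SERPINE2, whose probe also lies across a gap in the genome, of THBS1 and THBS2, where a second probe can be set beside the first, and of SPP1, which was spotted repeatedly. They are written 5′ to 3′ as deposited, in lower case throughout, and their positions are on hg19.
FN1, chr2:216288217-216288895, minus strand: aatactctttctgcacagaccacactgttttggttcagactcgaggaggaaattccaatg
SERPINE2, chr2:224840597-224842295, minus strand: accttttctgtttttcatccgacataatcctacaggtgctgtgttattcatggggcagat
THBS1, chr15:39874546-39874605, plus strand: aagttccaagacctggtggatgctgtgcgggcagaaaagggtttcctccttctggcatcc
THBS2, chr6:169620294-169620353, minus strand: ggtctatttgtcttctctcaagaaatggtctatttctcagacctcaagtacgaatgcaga
SPP1, chr4:88903920-88903979, plus strand: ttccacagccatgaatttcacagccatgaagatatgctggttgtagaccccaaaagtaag
The FN1 coordinates span 679 bases for a probe of 60, which leaves a gap of 619 bases, as for a probe placed across a junction of exons. The SERPINE2 coordinates span 1699 bases in the same way. All 3 reading frames of the FN1, THBS1 and THBS2 probes shown are free of stop codons, as are 2 frames of the SERPINE2 probe and 1 of the SPP1 probe. The GC content of the 11 probes ran from 35% to 55%, against a median of 45% over the probes compared. Exons and untranslated regions of hg19 were not analysed here.

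Values are given first as the processed signal, the brightness of a spot in scanner units after the scanner software subtracted its background. For the comparison, the log2 signal was reduced by the 75th percentile of its array, which was 7.14 for NC and 6.83 for si-THOC2, so that scaling added 0.31 to every log2 fold change of si-THOC2 over NC. The scanner software marks a signal as well above background or not. The lowest signal so marked was 14.7 for NC and 15.9 for si-THOC2, and a difference was called at 2-fold or more among the 25345 probes marked on at least 1 array. Of the 11 probes of these genes, 9 were compared, 8 of them marked on both arrays, and the 2 probes of POSTN and SPP1 were marked on neither. A single probe, that of FN1, was called higher and none was called lower. Over all probes compared, 2.94% were called higher and 3.33% lower. Over the 22207 probes well above background on both arrays these shares were 0.833% and 0.365%. Because the selection used this contrast, nothing is read from the count of 1.

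**Figure D1:**
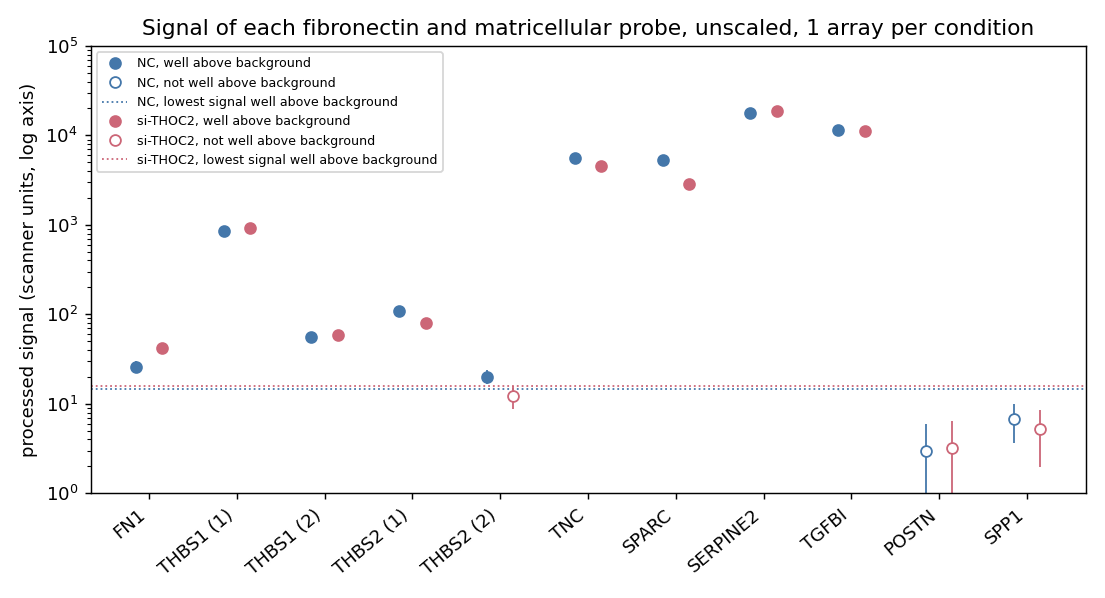
Unscaled processed signal (vertical, log axis, scanner units) of the 11 probes on the NC array (blue) and the si-THOC2 array (red), 1 array each. Bars are the error the scanner software gives for the spot (mean over 10 spots for SPP1), drawn no lower than 1, open points are not well above background, and dotted lines are the lowest signals well above background. THBS1 (1) and THBS2 (1) are the brighter probe of each gene. The FN1 points lie just above the dotted lines, and POSTN and SPP1 lie below them.

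FN1 had 1 probe, at 2q35. Its signal was 26.0 ± 4.10 (scanner error) with NC and 42.4 ± 5.49 with si-THOC2. The si-THOC2 array was the higher of the pair. Both signals were dim, at 1.77 and 2.67 times the lowest signal well above background of their arrays. Unscaled, the ratio was 1.63, and with the arrays scaled it was 2.03-fold, a log2 fold change of 1.02. That value passed the 2-fold threshold by 0.02. Repeated spots give the technical SD of a log2 fold change, and its median was 0.17 for the 5 repeated probes with a log2 signal between 4 and 6, with single probes from 0.14 to 0.31. The scanner error of the FN1 log2 fold change was 0.29. Both errors were larger than the distance to the threshold. The next highest of the compared probes, 1 of THBS1, lay at 0.43.

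The FN1 signals are what remained after subtraction of the background. Before subtraction, the mean signal of its spot was 67.7 with NC and 80.0 with si-THOC2, a ratio of 1.18. The local background beside the spot read 23.0 and 20.0, which alone does not account for the step from the mean to the processed signals. How the scanner software made that step was not analysed here. With normexp, which both models the background in another way and adds an offset of 50 to every signal, the log2 fold change was 0.40, and which of these moved it was not tested. Centring by blocks of spots over the slide gave 0.97, just under 2-fold. The FN1 spot lay in a block of 211 compared spots with a median log2 fold change of 0.05, of which 2.37% were called higher. Of the 6179 probes well above background on both arrays with a log2 signal between 4 and 6, 2.14% were called higher, and the SD of their log2 fold changes was 0.44 around a median of 0.04. With 1 probe, other parts of the FN1 transcript were not analysed here.

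The thrombospondins encoded by THBS1 and THBS2 are trimeric glycoproteins that bind calcium, CD36 and CD47, and that of THBS1 is also known to activate latent TGF-beta. THBS1 had a pair of probes on chromosome 15 at 15q14, 14225 bases apart. The brighter one, at 39888831 to 39888890, read 854 with NC and 927 with si-THOC2, which differ by 0.43 on the scaled log2 axis. The other, printed above, read 56.6 and 58.3, a log2 fold change of 0.36. Unscaled, the THBS1 signals were almost level, with ratios of 1.08 and 1.03, so that most of each log2 fold change is the 0.31 added by scaling. The probes differed from each other by less than the technical SD of the dimmer one (0.17).

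THBS2 also had a pair of probes, at 6q27 and 4333 bases apart. The probe from 169615901 to 169615960 read 108 with NC and 79.7 with si-THOC2, and its log2 fold change was -0.13 against a technical SD of 0.10 and a scanner error of 0.22. The printed probe read 20.1 with NC, well above background, and 12.2 with si-THOC2, which was not. For that probe the fold is a bound, at least 1.02-fold higher with NC, and its spot lay in a block where 9.25% of the compared spots were called higher. As read, the printed probe had a log2 fold change of -0.41, smaller in size than its technical SD of 0.42 and its scanner error of 0.48. Both THBS2 probes thus had values below 0, opposite in sign to those of THBS1, but each lay within its scanner error, and neither passed 2-fold. The mean over the pair was -0.27, and with the dim signal set at its limit it was -0.08.

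Tenascin-C (TNC) is a large six-armed glycoprotein that counteracts the spreading of cells on fibronectin. Its probe at 9q33.1, from 117783310 to 117783369, read 5542 with NC and 4530 with si-THOC2. The unscaled decrease was taken up by the scaling, and the log2 fold change was 0.02, below the technical SD of 0.05 at this signal. Its sign turned with the processing, from 0.02 to -0.11.

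SPARC, or osteonectin, is a collagen-binding glycoprotein that weakens the adhesion of cells. Its probe at 5q33.1, from 151041040 to 151041099, read 5252 ± 525 (scanner error) with NC and 2851 ± 285 with si-THOC2. This was the lowest log2 fold change among the compared probes of these genes, -0.57, or 1.49-fold higher with NC. The difference was larger than the technical SD of 0.05 and the scanner error of 0.20. Over the 5155 probes of log2 signal over 10 on both arrays, the median log2 fold change was 0.08 with an SD of 0.21, and 0.194% were called lower. SPARC itself was not called. Its spot lay in a block where 9.40% of the compared spots were lower by 2-fold or more, and centring by block gave -0.59. The part of the slide in the SPARC value was not tested beyond that.

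SERPINE2, or protease nexin-1, inhibits thrombin, urokinase and plasmin at the cell surface and in the matrix. Its probe at 2q36.1 read 17873 with NC and 18951 with si-THOC2, an unscaled ratio of 1.06 and a log2 fold change of 0.40. TGFBI encodes a matrix protein that binds integrins and is induced by TGF-beta. The TGFBI probe at 5q31.1, from 135399343 to 135399402, read 11622 and 11231, a log2 fold change of 0.26. For comparison, both probes of ACTB, the reference gene of the study's RT-qPCR, had log2 fold changes of 0.43 and 0.25. The values of SERPINE2, TGFBI and THBS1 lay between those of the pair.

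Periostin (POSTN), a relative of TGFBI, and osteopontin (SPP1), an integrin ligand known as a melanoma marker, were not well above background on either array, so no fold is given. The POSTN probe at 13q13.3, from 38137366 to 38137425, read 2.97 with NC and 3.22 with si-THOC2. Both are surrogate values, which the scanner software writes where a signal cannot be told from noise. The median surrogate value was 3.02 for NC and 3.26 for si-THOC2, and 36.7% and 39.4% of all non-control spots carried one. SPP1 at 4q22.1 was printed on 10 spots. With NC their signals ran from 3.20 to 15.1 with a median of 7.63, and with si-THOC2 from 3.21 to 10.5 with a median of 4.67. The ranges overlapped, although the brightest spots were on the NC array, and 0 of 10 spots was marked well above background on either one. Surrogates stood in for 3 of the 10 on the si-THOC2 array and 0 on the NC array.

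**Figure D2:**
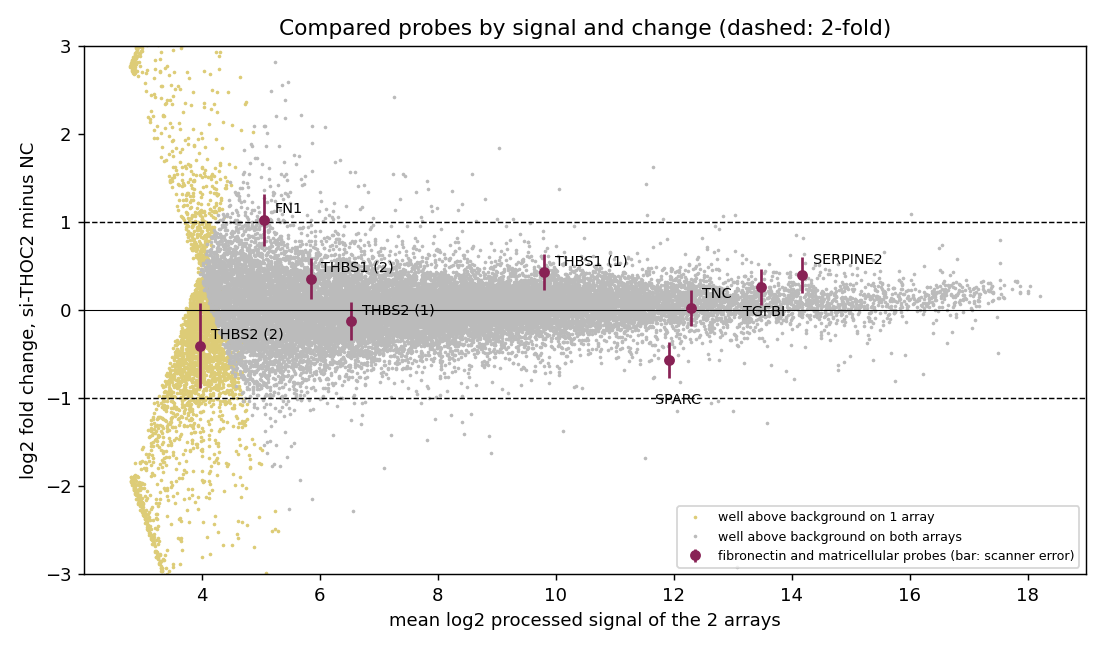
Log2 fold change of si-THOC2 over NC (vertical) against the mean log2 processed signal of the arrays (horizontal) for the 25345 compared probes. Grey probes were well above background on both and yellow ones on 1, purple points are the 9 compared probes of the fibronectin and matricellular genes with the scanner error as bars, and dashed lines mark 2-fold. FN1 sits at the upper line in the dim part of the range, SPARC lies below 0 among bright probes, and 218 probes above and 110 below the drawn range of -3 to 3 are not shown.

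Ordered by the mean log2 fold change of their compared probes, the 7 measured genes ran from FN1 (1.02) through SERPINE2 (0.40), THBS1 (0.39), TGFBI (0.26), TNC (0.02) and THBS2 (-0.27, or -0.08 with its dim signal at the limit) to SPARC (-0.57). SERPINE2 and THBS1 differed by less than the technical SD of 0.05. Of the 7, 5 lay above 0 and 2 below, and their median was 0.26, or 0.14 without FN1. Over all 17514 genes compared the median was 0.02, and 53.5% lay above 0. The genes did not share a direction. FN1, THBS1, SERPINE2 and TGFBI stayed above 0 and THBS2 and SPARC stayed below 0 under all alternatives that gave a value, whereas TNC changed sign. Some alternatives could not differ: filters on dim probes return the same value for a gene whose probes were all marked on both arrays. The choice of the brightest probe does so for a gene with 1 probe, and the authors' values nearly repeat quantile normalization.

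**Figure D3:**
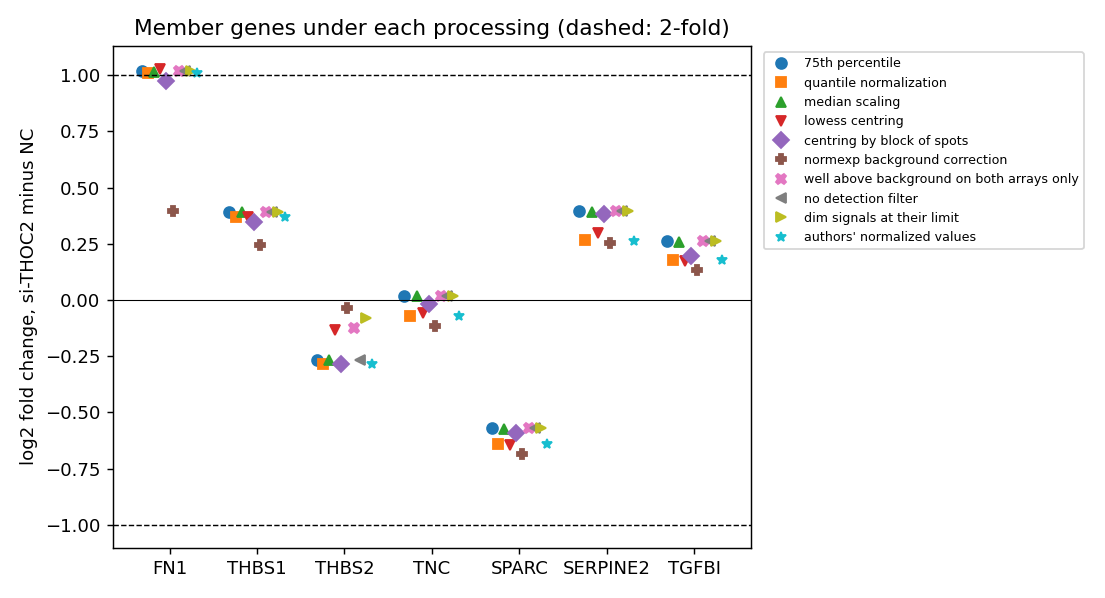
Log2 fold change of si-THOC2 over NC (vertical) of the 7 measured genes (horizontal), each as the mean of its compared probes, under 10 ways of processing shown by colour and shape. Dashed lines mark 2-fold. FN1 lies at or near 1 in all but normexp, where it is 0.40, and SPARC stays between -0.68 and -0.57.

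Receptors for fibronectin and the matricellular proteins form the surface side of the same system. For this and the following lists, a signal not well above background was set at its limit before a gene's mean was taken, and over all genes compared the median was then 0.04. With this setting 477 of the 25345 compared probes were called higher and 225 lower, so nothing is read from a count of 0 in a short list. The share of all genes above 0 was taken without this setting only, and was 53.5%. Of 16 receptor genes, all on the array, 12 were compared, 10 with a value above 0 and 2 below, with a median of 0.17 and a range of -0.22 to 0.54, and 0 passed 2-fold. The 3 with the highest NC signals were SDC4, a heparan sulfate proteoglycan of focal adhesions, CD44, the hyaluronan receptor, and ITGA5, the alpha chain of the classical fibronectin receptor. SDC4 read 20546 with NC and 19284 with si-THOC2 (log2 fold change 0.22). The brighter CD44 probe read 9213 and 7261 (-0.03) and its other probe 73.3 and 64.3 (0.12). ITGA5 read 4720 and 4116, a log2 fold change of 0.11. LRP1, an endocytic receptor that clears several of these proteins, had probes that disagreed. One went from 9.45, not above background, to 22.2, which is at least 1.88-fold higher with si-THOC2, and the other from 97.6 to 76.3 (-0.04).

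The plasminogen and thrombin system holds the proteases that SERPINE2 inhibits and their partners. All 10 of its genes were compared, 6 above 0 and 4 below, with a median of 0.11 and a range of -0.18 to 0.47, and 0 passed 2-fold. Those with the highest NC signals were the plasminogen-binding pair ANXA2 and S100A10 and the activator PLAT. The brighter ANXA2 probe read 50228 with NC and 37934 with si-THOC2 (-0.09). S100A10 had a log2 fold change of -0.01 and PLAT, at 2804 and 2069, one of -0.13.

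Of 29 other matricellular genes, 19 were compared, 10 above 0 and 9 below, with a median of 0.01 and a range of -0.41 to 1.05. SMOC1 alone passed 2-fold as the mean of its probes. Among probes of the list well above background on both arrays, 1 was called higher and 0 lower, beside the 0.833% and 0.365% of all such probes. SMOC1, a calcium-binding relative of SPARC, had a probe that went from 34.1 to 77.1 (1.49) and another that went from 60.5 to 74.1 (0.60). COMP, a thrombospondin of cartilage, went from 10.3, not above background, to 17.6, at least 1.49-fold higher with si-THOC2, a bound below 2-fold. The 3 with the highest NC signals were ANGPTL4 with a log2 fold change of 0.45, CYR61 with 0.30 and MDK with -0.20.

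Of 14 genes of the TGF-beta pathway, 10 were compared, 6 above 0 and 4 below, with a median of 0.28 and a range of -0.43 to 0.67, and 0 passed 2-fold. The latent TGF-beta binding proteins LTBP4 and LTBP3 and the ligand TGFB1 had the highest NC signals. The brighter LTBP4 probe read 7853 with NC and 8102 with si-THOC2 (0.36), LTBP3 read 1617 and 1699 (0.38), and TGFB1 read 925 and 903 (0.28). These values lay in the range of the ACTB probes, as did that of TGFBI.

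**Figure D4:**
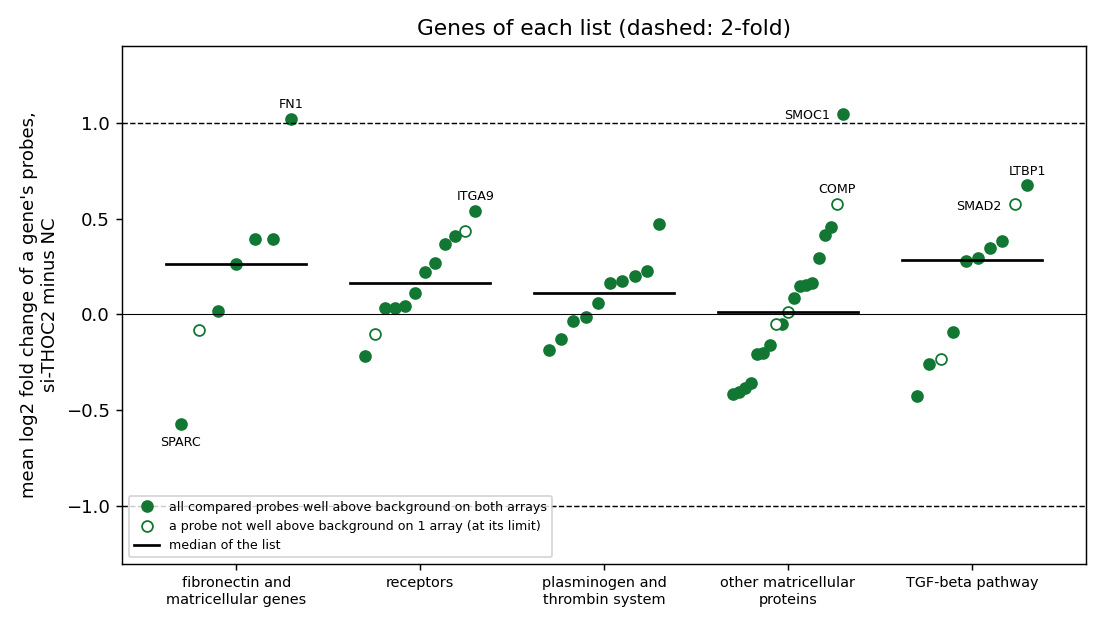
Mean log2 fold change of si-THOC2 over NC (vertical) of each compared gene, grouped by list (horizontal). Filled points have all compared probes well above background on both arrays, open points have one that was not, set at its limit, black lines are list medians and dashed lines mark 2-fold. FN1 and SMOC1 lie above the upper line, and no gene lies below the lower one.

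The label of the cells was set against marker genes. Of 10 melanocyte and melanoma markers, 8 were well above background on at least 1 array, among them SOX10 (6196 with NC, 5196 with si-THOC2), MIA (59808 and 43755), PRAME, S100A1, S100B, MITF and DCT, and the pigment genes TYR and PMEL on neither. MLANA was marked with si-THOC2 alone, at 18.7 against 2.94 (at least 1.58-fold). The summed signal of the list was 68271 with NC and 50707 with si-THOC2, most of it from MIA. This sum and those of the other marker lists are unscaled and take in probes not above background on either array. With the arrays scaled, the median log2 fold change of the compared melanocyte and melanoma markers was -0.02. Of 6 fibroblast markers, 2 were measured, and the collagens COL1A1, COL1A2 and COL3A1 and the proteoglycan LUM were not well above background on either array. The fibroblast sum was 271 with NC and 293 with si-THOC2. Within it, 1 of 2 probes of DCN, a small proteoglycan of the matrix, went from 62.4 to 149 (1.56), and PDGFRB had a mean of -0.10.

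Some markers of other cell types were also detected. All 3 leukocyte markers, CD14, CD3E and PTPRC, had a probe well above background on both arrays, at 24.0 to 27.4 with NC and 25.0 to 37.4 with si-THOC2, with log2 fold changes of 0.37, 0.88 and 0.39. Of the 7 probes of these genes only those 3 were marked, and every other PTPRC probe was marked on neither array. Their summed signal, unscaled and with the undetected PTPRC probes in it, was 89.2 with NC and 105 with si-THOC2. Of 4 keratinocyte markers, only KRT14 was measured, with 1 probe at 83.9 and 104 (0.62) and another from 11.9, not above background, to 26.9 (at least 2.28-fold). The keratinocyte sum was 105 with NC and 141 with si-THOC2, with KRT5, CDH1 and EPCAM not above background. Of the 3 endothelial markers, CDH5 (17.0 with NC, 5.40 with si-THOC2) and VWF were well above background with NC alone, PECAM1 had a log2 fold change of 0.43, and the sum was 86.7 with NC and 68.5 with si-THOC2. The part of these signals in the FN1 value was not tested.

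The 5 protein-coding genes whose pair of scaled log2 signals lay nearest to that of FN1, among 10992 genes measured on both arrays, were KRT17, CASD1, OGDH, ZNF616 and RNF113B. Their distances from FN1 ran from 0.06 to 0.13 on the log2 scale, and each rests on 1 compared probe. KRT17, a keratin, read 27.1 with NC and 42.4 with si-THOC2 (log2 fold change 0.96). RNF113B read 23.8 and 41.4 (1.11), and the others had log2 fold changes of 0.87 to 0.98. Likeness over 2 arrays is a description of position in the plot of change against signal and no more.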

How the data were processed

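RNA of A375 cells, 1 culture transfected with si-THOC2 and 1 with NC, was hybridized to 1 Agilent SurePrint G3 v3 array each. The deposited intensity values were made by the authors with Agilent Feature Extraction 10.7.1.1, which subtracts background and corrects trends over the array. A table of log2 values normalized by the authors, equal in distribution between the arrays, served as an alternative, and their own comparison (folds and log2 folds) was not used. The methods' Student's test needs replicates and was not run. The deposited marks for outliers, control spots and signals well above background are set per spot.

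Control and outlier spots (230 on the NC array, 253 on the si-THOC2 array) were left out, log2 signals were averaged per probe and reduced by the 75th percentile of each array over non-control spots, and every probe marked well above background for NC, si-THOC2 or both was compared at 2-fold. Technical SDs came from probes with 5 or more repeated spots. Where 1 side was dim, the fold is a bound: the brighter signal over the dim one or, where higher, over the lowest marked signal of that array. Precision is limited by the number of arrays, 1 for each condition.

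The members and gene lists were chosen with earlier results of these data known. Named genes were the members, THOC2, ACTB, markers, the 3 genes of each list with the highest NC signal, those past 2-fold, and the 5 nearest to FN1. Alternatives were quantile normalization, median scaling, lowess centring (span 0.3), centring by block (16 down, 8 across), normexp (offset 50), other filters on dim probes, the authors' values, the brightest probe and folds of 1.5 and 3. Simulated data were made for the 22207 probes marked on both arrays, a part of those compared. In them, 200 of 200 probes changed by a log2 value of 2 were recovered with 1 false call. That log2 value was well above the 2-fold threshold. Recovery of probes near the threshold, where that of FN1 lies, was not tested. Python 3.11.15, numpy 2.4.6, pandas 2.3.3, statsmodels 0.14.6, matplotlib 3.10.9, R 4.3.3 and limma 3.58.1 were used.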

Additional observations from a re-analysis of the deposited data

How the results depend on the processing

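The FN1 log2 fold change (1.02) moved beyond the technical SD under normexp alone, to 0.40, and its call at 2-fold was lost there, with centring by block of spots (0.97) and at a fold of 3, so that 0 probes of these genes were called. The filters on dim probes could not change the FN1 value, because its probe was marked on both arrays. No probe of these genes was called lower under any alternative, each taken alone. At a fold of 1.5, SPARC fell just short, at 1.49-fold higher with NC. Its log2 fold change ran from -0.57 to -0.68 over the alternatives, and the fold of 1.5 was not combined with them. The median of the 7 genes (0.26) was 0.18 with quantile normalization and the authors' values, 0.17 with lowess centring, 0.19 with centring by block, 0.13 with normexp and, an alternative added after the data were seen, 0.14 without FN1. Counts over all probes, 745 higher and 843 lower, were 79 and 33 with normexp, 185 and 81 for probes well above background on both arrays, 3131 and 1926 without a detection filter, 477 and 225 where dim signals were set at their limit, 1558 and 1944 at a fold of 1.5, and 447 and 501 at a fold of 3. The share of calls that were lower was 53.1%, against 42.5% with lowess centring, 38.1% without a detection filter, 29.5% with normexp, 30.5% for probes marked on both arrays and 32.1% where dim signals were set at their limit, and with no filter the median of all probes shifted from 0.03 to 0.31. The cause of these changes was not tested. No paired analysis was possible because each condition had 1 array. FN1 and the dimmer THBS2 probe lie within a factor of 3 of the lowest signal well above background. The median technical SD was largest, 0.42, up to a log2 signal of 4, where that THBS2 probe lies. It was 0.17 from 4 to 6, where FN1 lies, and 0.05 over 8.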

Other observations

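A long noncoding RNA annotated upstream of THBS1, lnc-THBS1-1, was looked at after its values were seen. Its probe at 15:39784868 to 39784927, on the plus strand, went from a signal of 60.7 with NC to 20.9 with si-THOC2 (log2 fold change -1.23, with a technical SD of 0.17). Its other probe, whose coordinates run from 39773292 to 39784770, went from 2.99, not above background, to 29.3, at least 2.48-fold higher with si-THOC2. The probe of lnc-THBS1-2 was not well above background on either array. The opposite directions of the lnc-THBS1-1 probes were seen on 1 array per condition and were not tested.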
